A study of Mus musculus with 8 samples.

Results

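The cytosolic ribosomal protein genes encode the proteins of the ribosome that works outside mitochondria. They were taken by symbol: Rplp0, Rplp1, Rplp2, Rpsa, and every Rpl or Rps name followed by digits and at most 1 letter, without pseudogenes and without the S6 kinases. Of 23282 genes in the count table, 81 had such a name, and 72 of these had a mean of 5 CPM or more (CPM is the count of a gene scaled to a common library size) over the 8 libraries. These 72 members are 31 genes of the small subunit and 41 of the large subunit. The study compared hematopoietic stem and progenitor cells from mouse bone marrow, with 4 samples labelled Hdc-/- on a C57BL/6 background and 4 samples of wild-type (WT) C57BL/6 mice. The product of Hdc, histidine decarboxylase, synthesises histamine. RNA came from 2000 sorted cells per sample and was amplified before sequencing, and no treatment is given. The sources used here give no age, no sort markers and no position of the Hdc deletion. The labels do not say whether the samples came from separate mice, so the p-values reflect only sample-to-sample spread, part of which may be technical.

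Library totals ran from 16322738 to 19775106 counts. Hdc reads went against the labels. WT libraries had 14.3 ± 1.56 CPM (SD, n = 4), and those labelled Hdc-/- had 43.0 ± 0.895 CPM (SD, n = 4), a log2 difference of 1.58 (SE 0.11, adjusted p = 6.4e-08, edgeR quasi-likelihood test). Whether these reads lie in the deleted part was not tested, so the groups are called by their labels. All 10 markers of stem and progenitor cells passed the filter on low counts, and their summed level was 6289 to 6495 CPM in the libraries labelled Hdc-/- and 5199 to 6156 CPM in WT. Markers of other cells also moved with the groups. All 8 red cell markers were higher in the libraries labelled Hdc-/- (summed 581.7 to 630.7 CPM against 162.6 to 180.4 CPM), all 10 neutrophil markers were lower (797.5 to 1444 CPM against 2683 to 4075 CPM), and all 7 tested B cell markers lay lower, 6 of them past the threshold (151.2 to 167.1 CPM against 235.9 to 312.4 CPM). Their part in the values below was not tested, and in bulk RNA fewer cells of a type and less RNA per cell cannot be told apart. The library WT 1 stood apart from the other 7 for the ribosomal protein genes, so the main results are given with and without it.

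A ribosome holds 1 copy of most of these proteins, so cells make them in matched amounts. Their mRNAs begin with a run of pyrimidines, the terminal oligopyrimidine (TOP) tract, through which mTOR signalling and the protein Larp1 control their translation. Mammalian genomes also carry many processed copies of these genes, and a read that matches both a gene and its copies cannot be placed by sequence alone. In blood formation the family is known from Diamond-Blackfan anaemia in humans, in which loss of 1 allele of a ribosomal protein gene impairs red cell production.

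The stretches below show how far the coding sequence of a member can be told from other genes. They are the first 60 coding bases in the GENCODE M21 annotation (GRCm38), with the start codon in capitals.
Rps3: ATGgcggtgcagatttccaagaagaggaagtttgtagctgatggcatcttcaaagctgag
Rps6: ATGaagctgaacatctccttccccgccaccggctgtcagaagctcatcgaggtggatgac
Rpl26: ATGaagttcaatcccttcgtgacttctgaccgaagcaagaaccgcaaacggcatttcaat
The first 50 of these bases were found in no other gene for Rps3 (chromosome 7), in 7 other genes for Rps6 (chromosome 4), and in 2 other genes for Rpl26 (chromosome 11).

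Pyrimidine tracts near the start are shown by 30-base windows around the annotated transcription start in RefSeq (GRCm38.p6), with the tract in capitals. They are shown for 3 genes that have such a tract and an unadjusted p under 0.05 in the comparison below.
Rps6: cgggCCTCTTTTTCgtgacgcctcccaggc
Rps2: gatctcgcgCTTCTTggagcactataaatt
Rpl14: tCTCTCTTCTCgctgagcgccgccaacatg
These windows lie at chr4:86857343-86857372 on the minus strand, chr17:24720058-24720087 on the plus strand and chr9:120571512-120571541 on the plus strand. Of the 72 members, 54 had a RefSeq window of 250 bases before to 50 bases after the start. A C followed by at least 5 more pyrimidines, beginning within 5 bases of the start on the transcribed strand, was present in 22 of 54 members (40.7%), in 12.9% of the other tested genes and in 11.9% of all genes. CCGGAAG, the core of an ETS-family site, was present on either strand in 42.6% of the members, 19.4% of the other tested genes and 9.93% of all genes. AAGATGG, a YY1-type sequence, was in 14.8%, 8.24% and 7.28%, and TATAAA in 11.1%, 8.81% and 15.7%. A match describes the letters in the window and does not show that a factor binds there, or that the mRNA begins with the tract.

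Ribosomal protein reads were a small and even share of the reads counted on genes in each library except WT 1. How reads with several matches were counted is not stated, and its part in these shares was not tested. They are thus not read as shares of the RNA. The 72 members took 1.73%, 1.72%, 1.67% and 1.70% of the counted reads in the libraries labelled Hdc-/- (1, 2, 3 and the unnumbered one). They took 2.12%, 1.70%, 1.71% and 1.65% in WT 1 to 4. The 3 other WT libraries lay within or close to the range of the libraries labelled Hdc-/-, and WT 1 lay above all 7. The mean was 1.71 ± 0.0288% against 1.79 ± 0.218% (SD, n = 4 each), and 1.69 ± 0.0320% (SD, n = 3) in WT without WT 1. Small subunit genes gave 50.3 ± 0.502% of the member reads in the libraries labelled Hdc-/- and 49.95 ± 0.441% in WT.

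**Figure D1:**
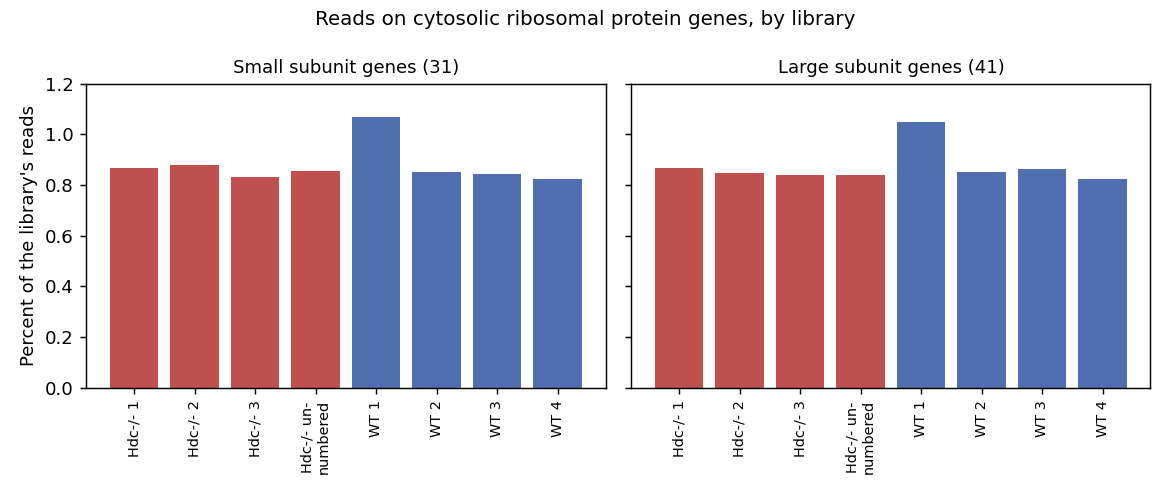
Percent of each library's counted reads on the small subunit genes (left, 31 genes) and large subunit genes (right, 41 genes), with 1 bar per library. Bars are red for the libraries labelled Hdc-/- and blue for WT. WT 1 is the highest bar in both panels, at 1.07% and 1.05%.

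The members differed in level by far more than the groups did. Rpl4, which lines the exit tunnel for the new protein chain, was the highest, at 2002 ± 259 CPM in WT and 1864 ± 30.2 CPM in the other group (SD, n = 4 each). Rps3, Rplp0 and Rpl8 were also among the highest. The highest 10 members held 59.4% of all member reads, 28 members lay under 50 CPM, and the mean CPM of the highest was 229.5 times that of the lowest. Just inside the limit of 5 CPM, Rpl11 had 8.25 ± 1.28 CPM in WT (SD, n = 4), and just outside it Rpl28 had a mean of 3.77 CPM.

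Genes with more of their sequence found elsewhere in the transcriptome tended to have lower levels per length. Of the 50-base stretches in a member's transcript, a median of 58.7% also occurred in a transcript of another gene. The share was 2.96% in Rps3 and reached 95.1% in Rpl35. The 27 members under 50% had a median of 202 CPM per kb of transcript, and the other 45 had a median of 72.3 CPM per kb. Over the 79 named genes with reads, Spearman's rho of shared percent and CPM per kb was -0.353 with 50-base stretches, -0.298 with 36-base and -0.468 with 100-base stretches. This correlation is across genes, which share the same 8 libraries and are not independent replicates. Rps18 went the other way, with 86.7% shared and 620 CPM per kb. Both measures rest on a representative transcript of each gene, and some of these are far longer than their coding part. That of Rps20 has 3706 bases, 357 of them coding, with 7.57% shared and 78.1 CPM per kb. The effect of the choice of transcript was not tested. The authors' counting of reads that match several places is not stated in the sources at hand, and its part in these levels was not tested.

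**Figure D2:**
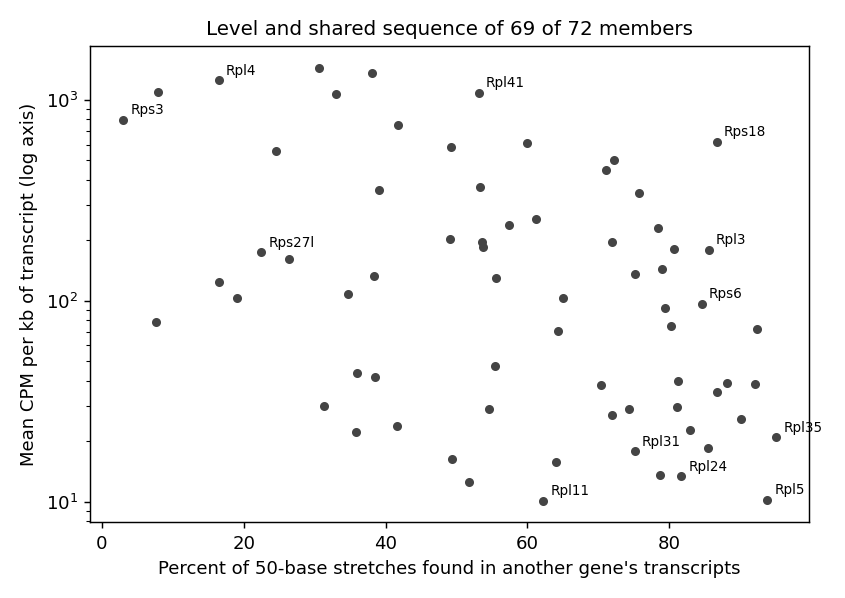
Mean CPM per kb of transcript (log axis) of 69 of the 72 members against the percent of 50-base stretches found in another gene's transcripts, 1 point per gene. Rps3 shares 2.96% at 796 CPM per kb, Rps18 shares 86.7% at 620 CPM per kb, and many points over 80% lie under 100 CPM per kb.

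Of the 9 named genes under the limit, 6 encode core subunit proteins. Rpl26 had 0 reads in all 8 libraries, which at 3 counts per library allows up to 0.152 to 0.184 CPM, counting error only. That limit holds for the counts as deposited and not for the expression of the gene. Whether reads of Rpl26 were left uncounted was not tested. Rpl30 had 16 to 31 reads per library, and Rpl23a 35 to 55. Rpl34 had 30 to 71 reads and Rps27 had 45 to 75. Rpl28 had 47 to 83 reads. The rest were the tissue-restricted paralogs Rpl3l, Rpl10l and Rpl39l. The share of 50-base stretches found in other genes was 98.6% in Rps27, 85.7% in Rpl23a, 76.4% in Rpl30 and 71.3% in Rpl26, and 50.6% in Rpl34 and 50.5% in Rpl28, under the median of the members.

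Rps27 and its paralog Rps27l show the contrast within 1 pair. Their first 60 coding bases are given with the 18 differing bases in capitals.
Rps27: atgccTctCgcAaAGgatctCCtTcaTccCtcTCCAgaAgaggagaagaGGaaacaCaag
Rps27l: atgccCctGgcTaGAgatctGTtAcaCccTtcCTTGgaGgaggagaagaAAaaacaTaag
Over their 252 coding bases the pair is identical at 192 (76.2%). Rps27l, with 22.4% of its stretches shared, had 1379 to 1825 reads per library against 45 to 75 for Rps27.

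No ribosomal protein gene differed between the groups past the threshold. All 72 members passed the filter on low counts, and 0 had an adjusted p under 0.05 in edgeR's quasi-likelihood test, against 4.76% of all 13005 genes tested (2.05% higher and 2.71% lower in the libraries labelled Hdc-/-). DESeq2 and limma-voom also called 0 members. The lowest adjusted p was 0.132, for Rps2. At an unadjusted p under 0.05 there were 7 members, 1 higher and 6 lower in the libraries labelled Hdc-/-, against 18.7% of all genes (9.26% higher and 9.46% lower). That count was 4 without the library Hdc-/- 1 and 1 without Hdc-/- 3. The 95% interval excluded a 1.5-fold change in either direction for 65 members and a 2-fold change for 71, with Rpl36a the exception.

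The direction of the small differences rested on WT 1. With all libraries, 26 members had a log2 fold change above 0 and 46 below, with a median of -0.06 against 0.00 over all genes. Without WT 1, 47 lay above 0 and 25 below, with a median of 0.04. There were then 9 members at an unadjusted p under 0.05, 7 higher and 2 lower, against 19.6% of all genes (9.9% higher), and 0 passed the threshold in edgeR.

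**Figure D3:**
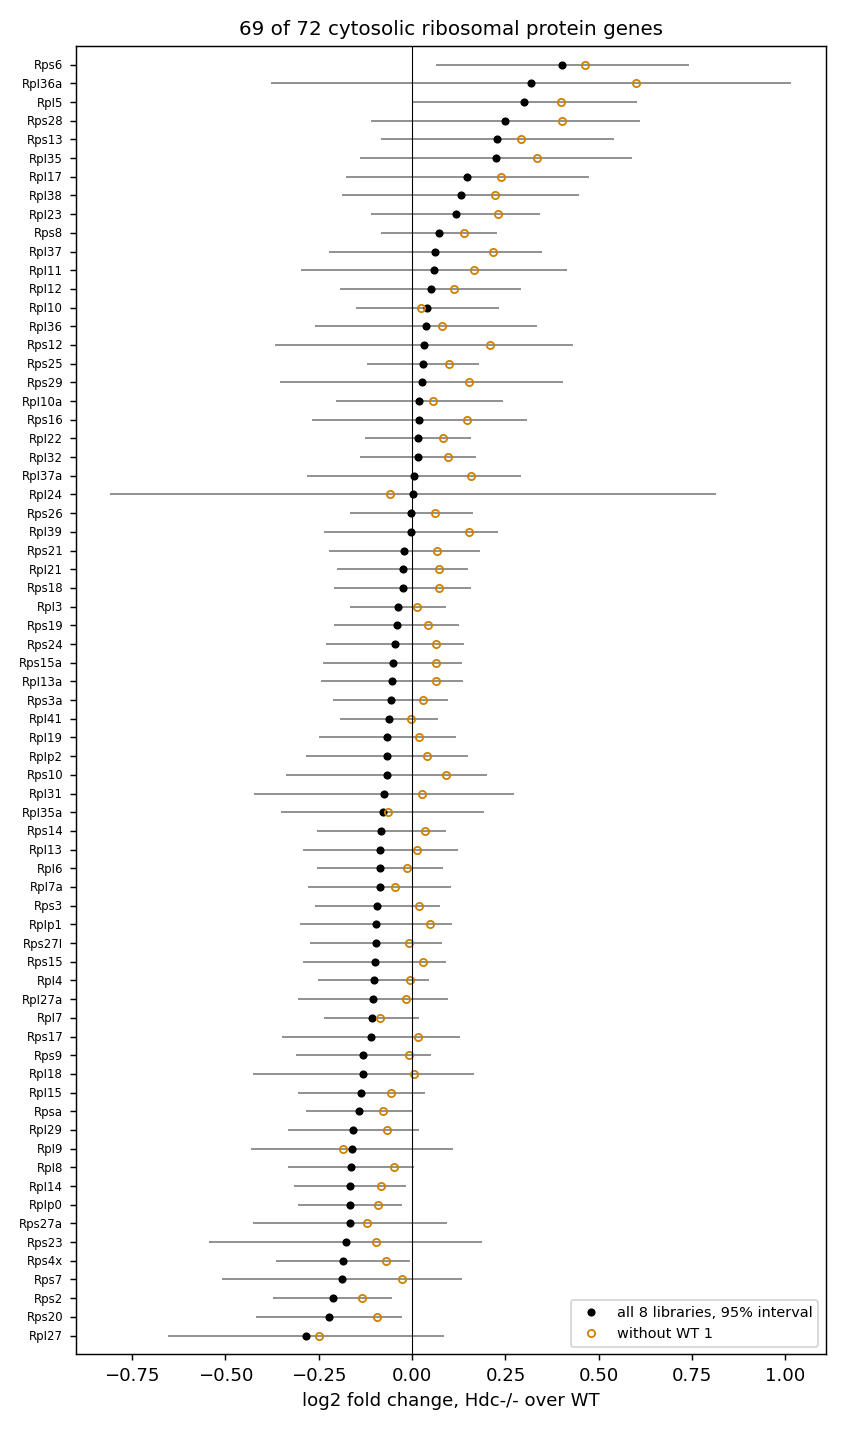
log2 fold change of 69 of the 72 members, libraries labelled Hdc-/- over WT, with 95% intervals from edgeR (black) and the same without WT 1 (open circles). Most open circles lie to the right of their black point, and Rpl24 has the widest interval.

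Among the members with the smallest p, Rps2, a small subunit protein at the entry of the mRNA channel, read 176.9, 146.9, 151.3 and 138.9 CPM in WT 1 to 4. In the libraries labelled Hdc-/- it read 137.5, 134.2, 125.1 and 133.4 CPM. Every library labelled Hdc-/- lay under every WT library, and WT 1 was the highest of all. The log2 fold change was -0.21 (SE 0.08, adjusted p = 0.132, edgeR), and -0.14 without WT 1. Rplp0, the base of the stalk that recruits elongation factors, read 974.6, 1007, 912.1 and 949.6 CPM against 1243, 1047, 1012 and 1012 CPM. These groups did not overlap either, although Hdc-/- 2 came within a few CPM of WT 3 and 4 (log2 fold change -0.17, SE 0.07, adjusted p = 0.173, edgeR; -0.09 without WT 1). Rpl8, a large subunit protein near the peptidyl transferase centre, was the only other member without overlap, at a log2 fold change of -0.16 (SE 0.08), and -0.05 without WT 1. Lower values without overlap were thus found for 3 members and higher values for 0, against 6.89% and 5.64% of all genes, 12.5% in either direction.

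Grouped by place in the ribosome, no group had a member past the threshold. Of 8 small subunit genes, Rpsa and those of the head, beak and mRNA entry, 3 had an unadjusted p under 0.05. All 3 were lower (Rps2, Rps20 and Rpsa), against 9.46% of all genes. Without WT 1, 1 of the 8 had such a p, against 19.6% of all genes. The group had a median log2 fold change of -0.13, and -0.03 without WT 1. The 4 stalk genes (Rplp0, Rplp1, Rplp2 and Rpl12) had a median of -0.08, and 0.04 without WT 1. The 7 tested exit tunnel genes had a median of -0.07, and 0.03 without WT 1. Rpl5, Rpl11 and Rpl23, which bind Mdm2 when ribosome assembly fails, all lay above 0 with a median of 0.12, and 0.23 without WT 1. Of these 3, 0 had an unadjusted p under 0.05 with all libraries, against 18.7% of all genes. Without WT 1 it was 2 of the 3, both higher, against 9.9% of all genes higher. Of the 3, Rpl5 had the largest difference, with 22.2, 19.9, 26.2 and 24.0 CPM against 22.3, 21.4, 15.1 and 16.2 CPM (log2 fold change 0.30, SE 0.14, adjusted p = 0.268, edgeR). Its groups overlapped. The 19 tested genes linked to Diamond-Blackfan anaemia in humans had a median of -0.05, and Rps20, lower, was the 1 with an unadjusted p under 0.05. Without WT 1 there were 2 of these genes, both higher, against 9.9% of all genes higher.

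The shift of WT 1 was shared by nearly all members and was not particular to them. In WT 1, 67 of 72 members were above every other WT library, and 58 had their highest value of all 8 libraries there. The median log2 difference of WT 1 from the other WT libraries was 0.33 for the members and 0.26 for the 76 mitochondrial ribosomal protein genes. Among other genes of 5 CPM or more it followed coding length, with a median of 0.27 for 657 genes under 500 bases and 0.14 for 2148 genes of 500 to 1000 bases. It was -0.02 for 3703 genes of 1000 to 2000 bases and -0.16 for 2856 longer genes. The coding lengths of the members run from 75 to 1257 bases. In a fit added after the data were seen, which took each library's trend with coding length out, 34 members lay above 0 and 38 below with a median of -0.01, and 0 passed the threshold.

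**Figure D4:**
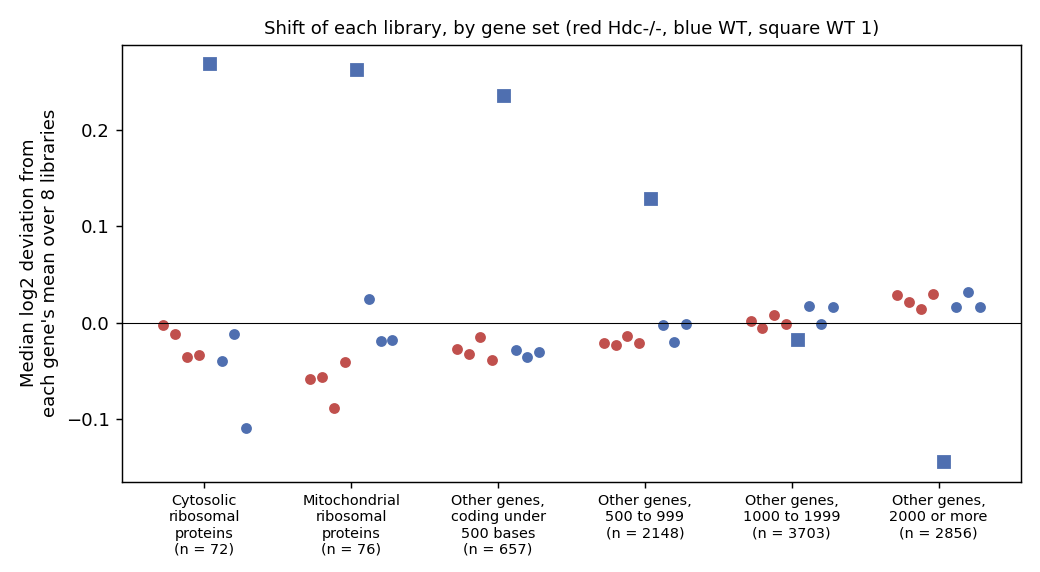
Median log2 deviation of each library from each gene's mean over the 8 libraries, for the cytosolic and mitochondrial ribosomal protein genes and for other genes by coding length in bases, with 1 point per library. WT 1 (blue square) lies at 0.27 for the members and at -0.14 for the longest genes.

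A few members varied between libraries in a way unlike the rest of the family. Rps6, the small subunit protein phosphorylated by S6 kinase, read 81.7, 72.2, 70.6 and 68.0 CPM in WT 1 to 4. In the libraries labelled Hdc-/- it read 116.9, 74.2, 123.1 and 71.9 CPM. Only Hdc-/- 1 and 3 were high, and the other 2 libraries of that group lay among the WT values. The log2 fold change was 0.40 (SE 0.16, adjusted p = 0.182, edgeR). It was 0.30 without Hdc-/- 1 and 0.26 without Hdc-/- 3. The coefficient of variation over the 8 libraries was 26.1%, against 2.54% from counting alone.

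Rpl24, a large subunit protein that bridges to the small subunit, was at 17.2 CPM in Hdc-/- 3 and 15.5 CPM in WT 2, and at 5.35 to 7.83 CPM in the other 6 libraries. Its high libraries were 1 of each group, and the log2 fold change was 0.00 (SE 0.37). Rpl36a, an X-linked large subunit gene, read 11.9, 4.64, 10.4 and 12.5 CPM against 12.1, 5.77, 9.53 and 4.25 CPM. Low and high values occurred in both groups (log2 fold change 0.32, SE 0.33, adjusted p = 0.661, edgeR). Rps28, a small subunit protein linked to Diamond-Blackfan anaemia in humans, had 53.6 CPM in WT 4 and 81.3 to 111.3 CPM in the other 7 libraries. Its log2 fold change was 0.25 (SE 0.17), and 0.08 without WT 4. In all, 12 members had a residual SD over 0.2 on the log2 scale once the shift common to the members of a library was taken out, and the median was 0.09. The lowest coefficients of variation of CPM were those of Rpl10, which joins the large subunit late in its assembly (2.74%), Rpl3 (5.14%) and Rpl7a (5.86%). Counting alone would give 4.255%, 1.515% and 3.915%, so the value of Rpl10 lay under its counting error. Rpl10 did not have its highest value in WT 1, and its residual SD was 0.14.

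**Figure D5:**
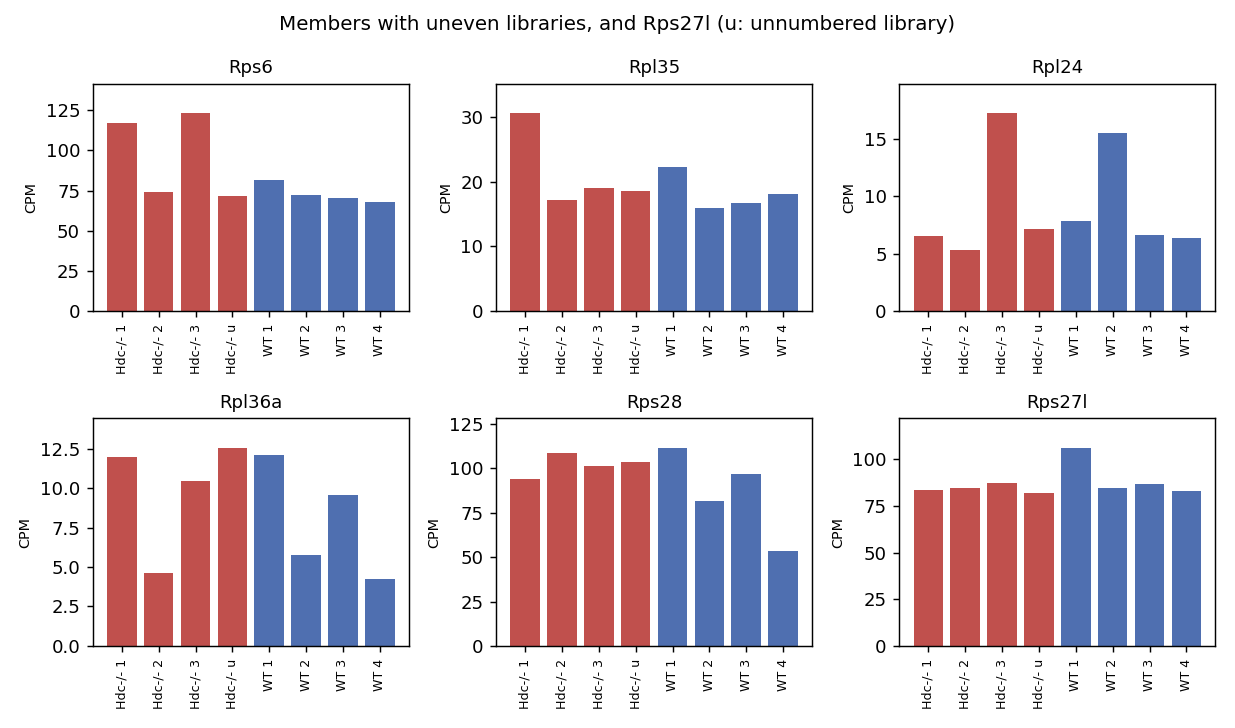
CPM in each library of 5 members with uneven values and of Rps27l, red for the libraries labelled Hdc-/- and blue for WT (u marks the unnumbered library). Rps6 is high only in Hdc-/- 1 and 3, Rpl24 in Hdc-/- 3 and WT 2, and Rps27l is highest in WT 1.

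Ribosomal proteins with other names and paralogs outside the name rule had small differences. Fau, which encodes a ubiquitin-like protein fused to a small subunit protein, and Gnb2l1 (now Rack1), a scaffold on the small subunit, had log2 fold changes of -0.03 and -0.13, and neither passed. The paralogs Rpl22l1, Rpl7l1 and Rpl36al had -0.06, -0.01 and -0.02, and none passed.

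With all 8 libraries, the wider translation machinery had no gene past the threshold either. Of 18 genes with TOP mRNAs, translation factors and others such as Npm1 and Tpt1, 0 passed. Those with an unadjusted p under 0.05 were 3, all lower. The median log2 fold change was -0.09, and 0.01 without WT 1. Of 29 translation factors outside that list 0 passed and 8 had an unadjusted p under 0.05, 3 higher and 5 lower, with a median of -0.07. Among 46 ribosome biogenesis genes the counts were 0 and 5 (1 higher and 4 lower), with a median of -0.05. For 13 genes of RNA polymerase I, which transcribes ribosomal RNA, they were 0 and 1, lower. Over all genes 18.7% had an unadjusted p under 0.05, 9.26% higher and 9.46% lower. The 76 mitochondrial ribosomal protein genes had 0 past the threshold and 12 at an unadjusted p under 0.05, all lower, against 9.46% of all genes. Without WT 1 that count was 2. Their median was -0.14, and -0.06 without WT 1. Without WT 1, the list with TOP mRNAs had 1 gene higher and 2 lower at an unadjusted p under 0.05. The other translation factors had 5 higher and 6 lower, against 19.6% of all genes (9.9% higher). Some of these genes passed the threshold, but the share of all genes past it in this fit is not given here. Higher in the libraries labelled Hdc-/- were Eif4a1 (log2 fold change 0.31, adjusted p = 0.00594, edgeR), Eif1 (0.21, adjusted p = 0.0153, edgeR) and Eif4a2 (0.28, adjusted p = 0.038, edgeR). Tpt1 was lower (-0.26, adjusted p = 0.0418, edgeR).

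Among the regulators of growth and of the response to faulty ribosomes, 3 of 20 growth regulators and 1 of 13 p53 targets passed the threshold, all higher in the libraries labelled Hdc-/-, against 2.05% of all genes. Mycn, a MYC-family transcription factor, read 185.6, 186.3, 174.9 and 183.4 CPM against 114.8, 154.3, 148.6 and 157.6 CPM. Its groups did not overlap, and WT 1 was the lowest library (log2 fold change 0.34, SE 0.09, adjusted p = 0.0255, edgeR; 0.25 without WT 1). Rictor, a subunit of mTOR complex 2, rose by 0.32 on the log2 scale (SE 0.08, adjusted p = 0.0321, edgeR), and Sp1, a transcription factor of many housekeeping promoters, by 0.23 (SE 0.06, adjusted p = 0.045, edgeR). The p53 target that passed was the pro-apoptotic Bbc3, at 11.5 ± 0.978 CPM against 7.75 ± 0.378 CPM (SD, n = 4 each), a log2 difference of 0.57 (SE 0.15, adjusted p = 0.0313, edgeR). At an unadjusted p under 0.05 there were 7 p53 targets, 6 higher and 1 lower, against 18.7% of all genes (9.26% higher and 9.46% lower). The groups did not overlap for any of the 4 genes that passed. Nor did they overlap for the p53 targets Ccng1, higher (log2 fold change 0.269, adjusted p = 0.117, edgeR), and Cdkn1a, lower (-0.335, adjusted p = 0.151, edgeR). Over all genes 12.5% had no overlap, 5.64% higher and 6.89% lower. When 1 library was left out, the log2 fold change ran from 0.25 to 0.39 for Mycn, 0.28 to 0.37 for Rictor, 0.20 to 0.26 for Sp1 and 0.53 to 0.62 for Bbc3. The call held in 4 of the 8 such fits for Mycn, 3 for Rictor, 3 for Sp1 and 1 for Bbc3. Over all the related lists, translation factors included, the count past the threshold was 2 without Hdc-/- 1 or Hdc-/- 2 and 0 without Hdc-/- 3. It was 1 without the unnumbered library, 8 without WT 1, 1 without WT 2, 2 without WT 3 and 1 without WT 4.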

How the data were processed

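Per the submitters' processing notes, the tools were HTSeq 0.6.1, TopHat2 2.0.4, Bowtie2 and bcl2fastq 1.8.4, with the genome build mm9. Per the labels' protocols, cDNA was amplified with a SMARTer ultra-low kit and made into Nextera XT libraries, which do not mark strand. The authors deposited whole-number counts per gene symbol. The annotation, strand setting, multiple-match setting and read length are not stated in the sources at hand. The table has 23284 rows, and 2 with a number for a name were left out (at most 0.0321% of a library). 1 column of the Hdc-/- group carries no replicate number and is called the unnumbered library.

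Counts were tested with edgeR 4.0.16 in R 4.3.3 (TMM scaling, robust quasi-likelihood, filterByExpr with a minimum count of 10 and total of 15) over 13005 genes, with Benjamini-Hochberg adjustment and a threshold of 0.05. CPM are TMM-scaled. DESeq2 1.42.0 and limma 3.58.1 were alternatives, and the scripts were tested on simulated data. Shared stretches and coding lengths came from GENCODE M21 transcripts of GRCm38, not the build of the counts. The members, the lists and the rule for named genes (smallest p, highest and lowest level and variation, structural lists) were chosen with earlier results of these data known. Some genes are not reported by name here.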

Additional observations from a re-analysis of the deposited data

Results flagged for a closer look

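For 38 named members and the share of reads on all members, each group of 4 libraries was examined (78 groups). In them, 13 values lay far from the other 3, by a rule that chance meets in about 1 in 20 groups. Members outside the rule for named genes were not examined. WT 1 held 9 of them. In that library the members took 2.12% of all counted reads, against 1.65% to 1.71% in the other WT libraries. Its CPM values far above the other WT libraries were 2389 for Rpl4, 1917 for Rps3, 1243 for Rplp0, 1207 for Rpl8, 404 for Rplp1, 167 for Rpl29, 106 for Rps27l and 99.0 for Rpl39.

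The 4 others were single genes. Rpl24 was at 17.2 CPM in Hdc-/- 3 and at 15.5 CPM in WT 2. Rpl35 was at 30.5 CPM in Hdc-/- 1, against 17.1 to 19.0 CPM in the other libraries labelled Hdc-/-. Rpl10 was at 30.2 CPM in Hdc-/- 3, just under the 31.3 to 31.5 CPM of its group.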

How the results depend on the processing

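In every fit run, 0 members passed the threshold. The median log2 fold change of the members ran from -0.10 to 0.04 when 1 library was left out, and was above 0 only without WT 1 and, at 0.02, with limma-voom sample weights. Members at an unadjusted p under 0.05 (7 with all libraries) ran from 1 to 9 when 1 library was left out. The count of all genes past the threshold (619) was 950 with DESeq2, 312 with a replicate block on the numbers 1 to 3, 345 with those 6 libraries and no block (added after the data were seen), and 379 to 815 when 1 library was left out. The count in the related lists (4) was 8 with limma-voom sample weights, 0 with the replicate block, 0 with those 6 libraries and no block, 2 with scaling on genes of the members' coding lengths, and 0 to 8 when 1 library was left out. The cause of these differences was not tested. Same-numbered libraries did not deviate together (r from -0.0607 to -0.0003), so the numbers were not taken to pair the samples. Under the replicate block the median of the members was -0.08. How reads with several matches were counted is not stated, and its effect on the levels was not tested. For the low members counting error alone is larger, with a coefficient of variation of 7.82% for Rpl24 against 0.536% for Rpl4. The observed coefficients over the 8 libraries were above these, at 50.3% for Rpl24 and 9.61% for Rpl4.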
